A study of Mus musculus with 16 samples.

Results

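The TGF-beta and BMP signalling genes described here are 46 genes taken by their symbols from a gene table of mouse spleen. They comprise 14 ligands, 12 receptors and co-receptors, 12 extracellular regulators and 8 Smads, and all 46 were found among the 54838 genes of the table. TGF-beta, activin and BMP ligands are secreted dimers that bring together type I and type II receptor kinases on a target cell. The receptors phosphorylate Smad2 and Smad3 (TGF-beta and activin) or Smad1, Smad5 and Smad9 (BMP), which enter the nucleus with Smad4, while Smad6 and Smad7 restrain the signal. TGF-beta is stored in the matrix in a latent form held by LTBP proteins, and BMP and activin ligands are trapped by secreted antagonists such as gremlin, noggin, chordin and follistatin.

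RNA was sequenced from spleens of C57BL/6 mice, and the labels name no genetic change or treatment. Each of 8 numbers, 4 male and 4 female, gave a size-selected sample and a whole spleen sample, so that each group had 8 samples, and samples are named below by group and number. For the size-selected group, minced spleen was digested with enzymes including Dispase II, red blood cells were lysed, and the material held back by a strainer was lysed for RNA. The labels name its source as spleen glia, attach the same protocol to whole spleen, and do not say how whole spleen was prepared; the age of the mice is not given in the sources used here.

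Total estimated counts ran from 13119992 to 19944440 in the size-selected samples and from 12153770 to 16282454 in whole spleen. Levels are given in CPM, which are counts divided by TMM-scaled library totals, and as means ± SD over 8 samples where an SD is shown. Markers of peripheral glia summed to between 82.3 and 682 CPM in the size-selected samples and to between 2.76 and 12.7 CPM in whole spleen, and all 10 of the 13 that could be tested rose. Markers of stromal cells were more abundant: the fibroblast list summed to between 1075 and 3790 CPM in the size-selected samples (5.01 to 59.8 CPM in whole spleen), the smooth muscle list to between 818 and 3836 CPM (8.69 to 73.4 CPM) and the endothelial list to between 859 and 2125 CPM (92.4 to 246 CPM). All 8 fibroblast, 6 smooth muscle, 8 endothelial and 6 mesothelial markers rose (mesothelial sums were 28.3 to 237 CPM against 1.58 to 5.71 CPM), and none of these markers was at 0 in any size-selected sample. B cell markers still summed to between 962 and 3399 CPM in the size-selected samples (5309 to 6560 CPM in whole spleen) and fell in 5 of 6, and T cell and neutrophil markers fell in 6 of 7 each. Erythroid markers fell in 2 of 6, with sums that varied widely in both groups (160 to 3570 CPM against 346 to 13760 CPM). Macrophage markers rose in 5 of 8 (2628 to 6141 CPM against 1352 to 2441 CPM) and megakaryocyte and platelet markers in 7 of 7 (96.8 to 671 CPM against 58.2 to 208 CPM). Immediate early and heat shock genes known to be induced by tissue dissociation, such as *Fos* and *Hspa1a*, rose in 8 of 10 and fell in 1, with sums of 3956 to 7685 CPM against 1698 to 2523 CPM. The part of these cell types and of dissociation in the member results was not tested, and in bulk RNA more cells of a type cannot be told apart from more RNA per cell. Whole spleen 427 had the highest sums of whole spleen for glia, fibroblast, smooth muscle and endothelial markers, and results that move without it are given with and without it.

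Most of these genes were more abundant in the size-selected samples. Of 41 members with enough counts to test, 33 rose (80.5%), 2 fell, *Tgfb1* and *Acvr1b*, and 6 were not called (edgeR's quasi-likelihood test, Benjamini-Hochberg adjusted p under 0.05). Over all 14510 genes tested, 37.5% rose and 30.4% fell. The median log2 fold change was 3.09 over the 41 members and 0.05 over all genes. In 28 members every size-selected sample was above every whole spleen sample, and in 1, *Tgfb1*, every one was below, where 23.4% and 11.6% of all genes did so. Members that reached the count minimum in fewer than 8 whole spleen samples passed the filter only with their size-selected samples. *Bmp4* and *Grem1* reached it in no whole spleen sample. The 24 members that reached it in all 8 whole spleen samples are therefore given as well: 16 of these rose, against 29.8% of all 11699 genes that reached it there. *Bmp3*, *Bmp5*, *Bmpr1b*, *Nog* and *Smad9* had too few counts to be tested.

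**Figure D1:**
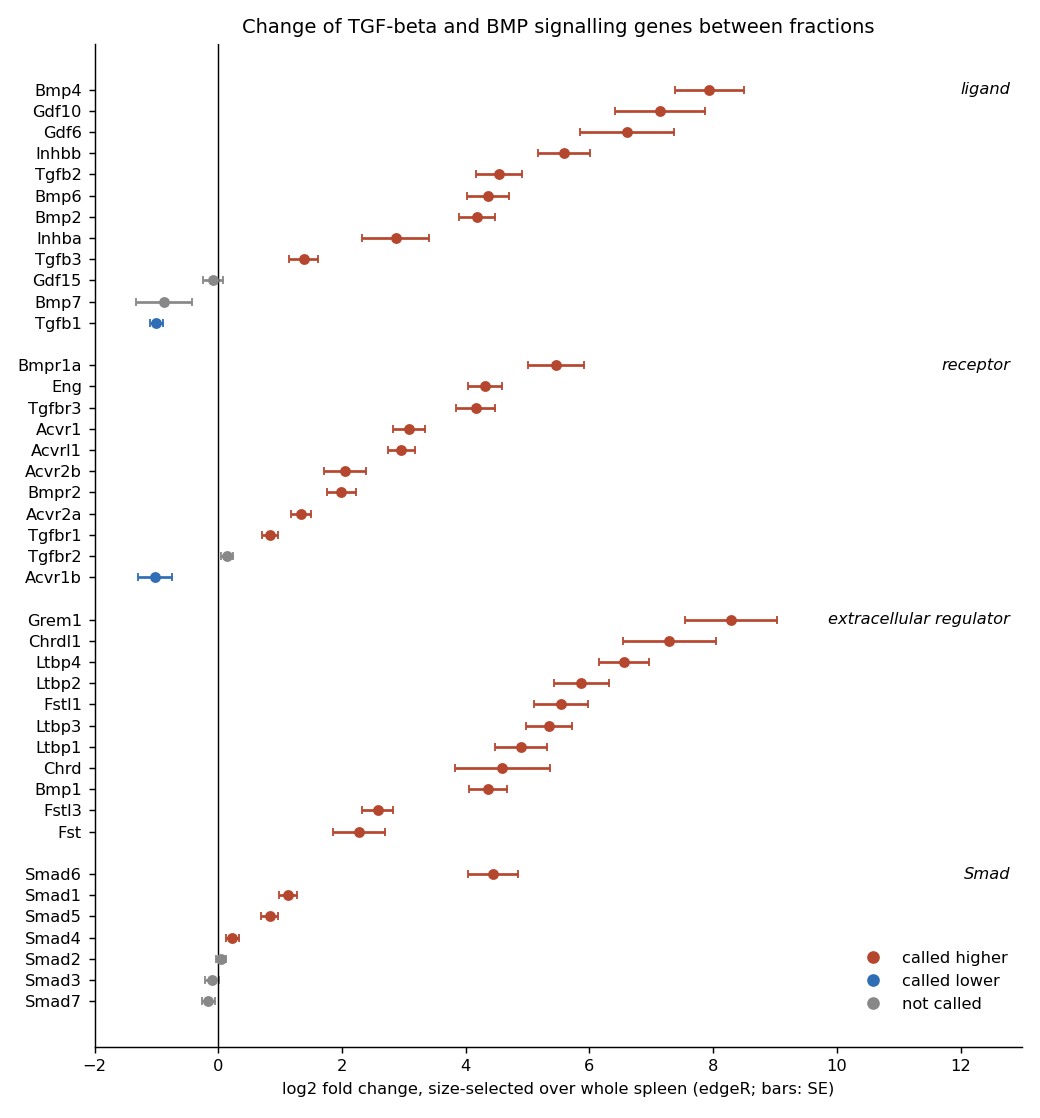
Log2 fold change (x axis, size-selected over whole spleen) with its standard error for the 41 tested members, grouped by role and ordered by size within a role. The 11 tested extracellular regulators all lie to the right of 0, from 2.27 to 8.29, whereas the 7 tested Smads run from -0.16 to 4.44.

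The ligands did not move as a block. Of 12 tested, 9 rose, *Tgfb1* fell and *Bmp7* and *Gdf15* were not called, with a median log2 fold change of 4.27. Only 5 ligands reached the count minimum in all 8 whole spleen samples, and 2 of these rose. The count of 9 and the median therefore rest largely on ligands that passed the filter through their size-selected counts. *Tgfb1*, the TGF-beta isoform made by most blood and immune cells, had a lowest, median and highest level of 161, 215 and 259 CPM in the size-selected samples and of 366, 434 and 459 CPM in whole spleen. The groups did not overlap. Its log2 fold change was -1.0 (SE 0.10, edgeR adjusted p = 3.902e-08), and it was lower in all 8 pairs of samples with the same number. The size-selected values of *Tgfb1* were among those found to be multiplied by a constant below 1 in the deposited table, and its log2 fold change was -0.76 once the constants were divided out (restored counts). The other TGF-beta isoforms went the opposite way. *Tgfb2* had a lowest, median and highest level of 17.1, 29.1 and 57.3 CPM in the size-selected samples and of 0.275, 1.32 and 3.18 CPM in whole spleen, and its log2 fold change was 4.54 (SE 0.37, edgeR adjusted p = 5.313e-09). *Tgfb3* ran from 28.8 to 74.7 CPM against 10.9 to 27.3 CPM in whole spleen and rose by 1.38 (log2, SE 0.23, edgeR adjusted p = 3.333e-05). For both isoforms the lowest size-selected sample was above the highest whole spleen sample. The rise of *Tgfb2* was 5.34 with the 4 female numbers alone and 3.91 with the 4 male numbers alone.

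The start regions of *Tgfb1* and *Tgfb2* are shown because these isoforms moved in opposite directions. Both are from RefSeq on GRCm38.p6 and span 250 bases before to 50 bases after the annotated start, and the capitals in *Tgfb2* mark the letters TATAAA, which begin 31 bases before the start. The *Tgfb1* window (chr7:25686752-25687051, plus strand) has a GC content of 77.0%, higher than that of 97.6% of the windows in the table, and the *Tgfb2* window (chr1:186705940-186706239, minus strand) one of 54.3%, higher than that of 54.5%. TATAAA, searched on both strands, is in 13.6% of the 32851 windows and in those of 4 of the 32 members that have one, *Tgfb2*, *Inhba*, *Bmpr1b* and *Fstl3*. Of the tested genes whose window holds it, 42.4% rose, against 38.9% of tested genes with any window in the table.
Tgfb1: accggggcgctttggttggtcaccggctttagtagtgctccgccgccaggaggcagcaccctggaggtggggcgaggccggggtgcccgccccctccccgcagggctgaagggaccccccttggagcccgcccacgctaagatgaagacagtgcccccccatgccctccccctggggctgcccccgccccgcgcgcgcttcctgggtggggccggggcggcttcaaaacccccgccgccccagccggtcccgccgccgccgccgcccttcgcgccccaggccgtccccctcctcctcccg
Tgfb2: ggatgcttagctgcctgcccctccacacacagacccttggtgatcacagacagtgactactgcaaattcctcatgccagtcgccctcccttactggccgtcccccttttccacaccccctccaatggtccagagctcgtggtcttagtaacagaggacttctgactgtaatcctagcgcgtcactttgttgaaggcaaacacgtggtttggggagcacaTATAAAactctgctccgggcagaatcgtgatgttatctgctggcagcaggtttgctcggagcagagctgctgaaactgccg

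Among the BMP and activin ligands the largest rises were in genes close to absent from whole spleen. *Bmp4*, a BMP of many mesenchymal tissues, ran from 6.34 through a median of 10.6 to 25.8 CPM in the size-selected samples. In whole spleen it had counts in 2 of 8 samples, 4 counts in whole spleen 435 and 1 count in whole spleen 445. It rose by 7.94 (log2, SE 0.56, edgeR adjusted p = 1.066e-09). Without number 435, whole spleen held 1 count, and the ratio of the group rates was 1358 with a 95% counting interval from 243 to 53670. *Gdf10*, also called BMP3b, had a lowest, median and highest level of 33.2, 82.7 and 195 CPM in the size-selected samples and of 0, 0.0778 and 4.00 CPM in whole spleen, the highest being whole spleen 427. It rose by 7.14 (log2, SE 0.73, edgeR adjusted p = 8.088e-08), or by 8.47 without that library. *Gdf6*, a BMP-type ligand of skeletal and eye development, ran from 1.18 in size-selected 435 through a median of 11.5 to 18.1 CPM. In whole spleen it was at 0 in 6 of 8 samples and at 0.816 CPM in whole spleen 427, and its log2 fold change was 6.60 (SE 0.76, edgeR adjusted p = 3.789e-07). Without that library, whole spleen held 1 count of *Gdf6*, a ratio of 1069 with a 95% counting interval from 191 to 42235. *Inhbb*, which encodes the subunit of activin B, had a lowest, median and highest level of 11.9, 31.7 and 48.5 CPM in the size-selected samples and of 0.131, 0.498 and 2.04 CPM in whole spleen (log2 fold change 5.59, SE 0.42, edgeR adjusted p = 2.139e-09). In each of these 4 ligands the groups did not overlap. With the male numbers alone the log2 fold changes of *Bmp4*, *Gdf10*, *Gdf6* and *Inhbb* were 7.21, 6.25, 4.97 and 4.76. With the female numbers alone those of *Gdf10* and *Inhbb* were 8.62 and 6.85, *Bmp4* had 1 count in whole spleen (ratio 777, 95% counting interval from 139 to 30725), and *Gdf6* had none, so that against a floor of 3 counts per library it was at least 68-fold higher. By limma-voom that of *Gdf10* was 8.90.

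*Bmp2* and *Bmp6* were present in both groups and were also higher in the size-selected samples. *Bmp2* averaged 155 ± 45.1 CPM against 8.56 ± 4.10 CPM and rose by 4.18 (log2, SE 0.29, edgeR adjusted p = 7.073e-10). *Bmp6*, which in the liver is the endothelial signal for hepcidin, averaged 32.4 ± 13.2 CPM against 1.58 ± 1.02 CPM and rose by 4.36 (log2, SE 0.34, edgeR adjusted p = 3.248e-09). *Inhba*, the subunit of activin A, averaged 2.98 ± 1.31 CPM against 0.413 ± 0.477 CPM, with overlapping groups, and rose by 2.87 (log2, edgeR adjusted p = 0.0001135), or by 3.49 without whole spleen 427. With males alone *Inhba* rose by 1.84 and with females alone by 4.88, and *Bmp2* rose by 4.77 with females alone. *Bmp3* had counts in all 8 size-selected samples, 531 in total, and 0 in all 8 whole spleen samples. Against the floor of 3 counts per library it was at least 19.1-fold higher in the size-selected samples. *Bmp5* had 13 counts in 2 size-selected samples and none elsewhere, which is under that floor.

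Neither *Gdf15* nor *Bmp7* was called. *Gdf15*, a stress-induced ligand that signals through a receptor outside this family, averaged 119 ± 32.3 CPM in whole spleen and 112 ± 27.5 CPM after size selection (log2 fold change -0.08, SE 0.16, edgeR adjusted p = 0.677). *Bmp7* was low in both, at 0.985 ± 0.627 CPM after size selection and 1.82 ± 1.11 CPM in whole spleen, and its log2 fold change was -0.88 (SE 0.45, edgeR adjusted p = 0.0872). In a fit with a replicate block for the shared number it was called lower, at -0.96 (edgeR adjusted p = 0.0361), and it was lower in 7 of 8 pairs. The size-selected values of *Bmp7* also carried a constant below 1. On restored counts, without the block, its log2 fold change was -0.62 and not called (edgeR adjusted p = 0.223).

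**Figure D2:**
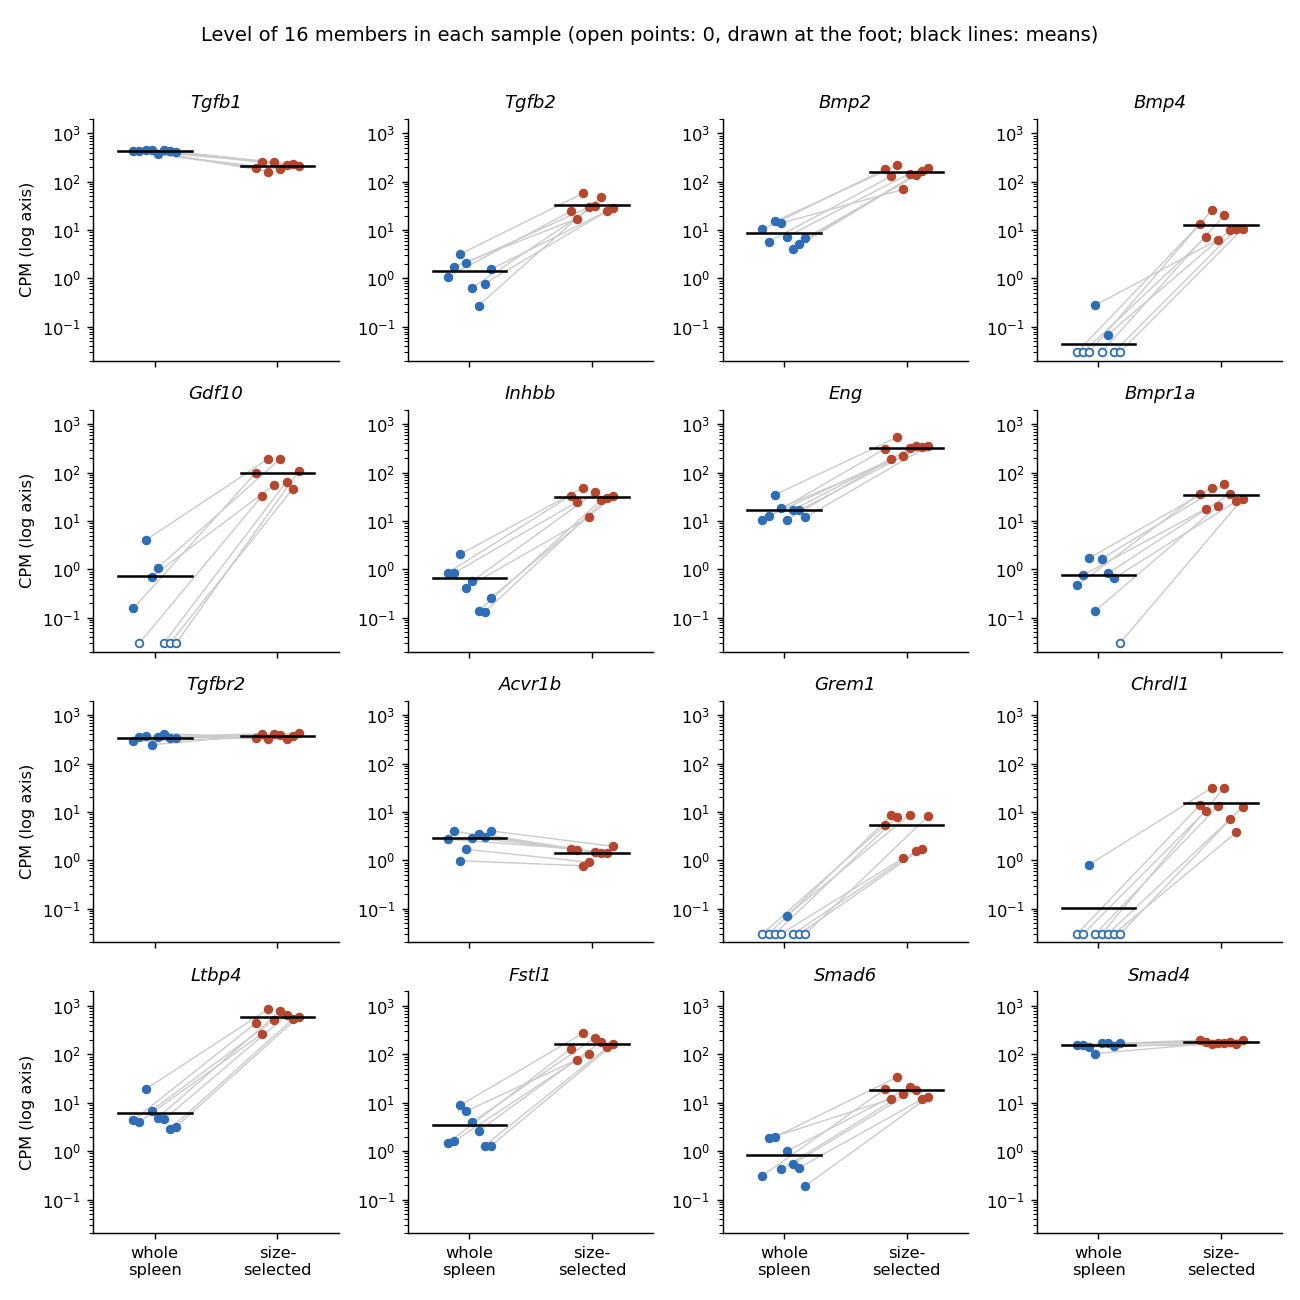
Level of 16 members in each sample, in CPM on a log axis, with grey lines joining samples of the same number, black lines at the group means and open points at the foot for samples at 0. Tgfb1 is lower in all 8 size-selected samples, Tgfbr2 and Smad4 overlap between groups, and Chrdl1 has a single whole spleen point above 0, whole spleen 427.

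Among the receptors, 9 of 11 tested rose, *Acvr1b* fell and *Tgfbr2* was not called, with a median log2 fold change of 2.05. Of the 9 receptors that reached the count minimum in all 8 whole spleen samples, 7 rose. *Bmpr1a*, a BMP type I receptor also called ALK3, had a lowest, median and highest level of 17.9, 32.7 and 57.3 CPM in the size-selected samples and of 0, 0.708 and 1.71 CPM in whole spleen (log2 fold change 5.46, SE 0.45, edgeR adjusted p = 5.301e-09). *Eng*, the endothelial co-receptor endoglin, had 188, 332 and 540 CPM against 10.5, 14.6 and 34.6 CPM in the same order, and rose by 4.31 (log2, SE 0.27, edgeR adjusted p = 3.08e-10). *Tgfbr3*, or betaglycan, the co-receptor that presents TGF-beta2, had 79.0, 124 and 173 CPM against 2.09, 6.76 and 15.8 CPM (log2 fold change 4.16, SE 0.31, edgeR adjusted p = 1.627e-09). *Acvr1*, the BMP type I receptor ALK2, had 7.06, 11.4 and 18.5 CPM against 0.839, 1.41 and 1.99 CPM (log2 fold change 3.09, SE 0.26, edgeR adjusted p = 6.087e-09). None of these 4 overlapped between the groups. *Tgfbr3* rose by 4.87 with females alone and by 3.49 with males alone.

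*Acvrl1* (ALK1), the type I receptor of endothelial cells for BMP9 and BMP10, averaged 119 ± 38.3 CPM against 15.2 ± 4.74 CPM and rose by 2.96 (log2, SE 0.22, edgeR adjusted p = 1.817e-09). Its neighbour 28.7 kb downstream on chromosome 15 is *Acvr1b* (ALK4), the type I receptor for activins, which went the other way. *Acvr1b* had a lowest, median and highest level of 0.771, 1.45 and 1.94 CPM in the size-selected samples and of 0.979, 3.01 and 4.05 CPM in whole spleen. It was lower in all 8 pairs, the groups overlapped, and its log2 fold change was -1.02 (SE 0.28, edgeR adjusted p = 0.003804). With the 4 male numbers alone it was -0.93 and not called. The size-selected values of *Acvr1b* also carried a constant below 1, and its log2 fold change on restored counts was -0.77 (edgeR adjusted p = 0.0210). The type II receptors *Acvr2b*, *Bmpr2* and *Acvr2a* rose by 2.05, 1.99 and 1.34 (log2). Of the pair that binds TGF-beta, *Tgfbr1* rose by 0.84 (log2, SE 0.13, edgeR adjusted p = 1.168e-05), or by 1.22 on restored counts, with overlapping groups, and *Tgfbr2*, at 373 ± 41.2 CPM against 338 ± 51.4 CPM, showed no called change, at 0.14 on the log2 scale (SE 0.10, edgeR adjusted p = 0.225). *Bmpr1b* had 24.7 estimated counts over the size-selected samples and 0 in whole spleen, under the floor.

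All 11 extracellular regulators that could be tested rose, and their median log2 fold change of 5.35 was the largest of the 4 roles. Only 4 of them reached the count minimum in all 8 whole spleen samples, and these 4 rose. The others passed the filter through their size-selected counts, so both the count of 11 and the median are shaped by the filter. *Grem1*, the BMP antagonist gremlin 1, had a lowest, median and highest level of 1.12, 6.64 and 8.71 CPM in the size-selected samples. It had 1 count in all of whole spleen, in number 436, so that the ratio of its rates was 614 with a 95% counting interval from 110 to 24280. The fitted rise of 8.29 (log2, SE 0.75, edgeR adjusted p = 1.73e-08) was 6.67 by limma-voom. With females alone the ratio was 329 (95% counting interval from 58.6 to 13015). Whole spleen was at 0 without number 436 and with males alone, where *Grem1* was at least 22.6-fold and at least 24.9-fold higher against the floor of 3 counts per library. *Chrdl1*, the BMP antagonist chordin-like 1, had 3.79, 13.1 and 31.5 CPM in the size-selected samples, and in whole spleen it had counts in 427 alone, at 0.816 CPM. Its rise was 7.29 (log2, SE 0.75, edgeR adjusted p = 9.731e-08), or 6.34 with males alone and 7.94 by limma-voom. Without that library whole spleen was at 0, and *Chrdl1* was at least 73.3-fold higher, or at least 68.1-fold with females alone. *Chrd*, or chordin itself, showed the same feature. It averaged 2.64 ± 1.06 CPM in the size-selected samples, had counts in whole spleen 427 alone, and rose by 4.59 (log2, edgeR adjusted p = 3.529e-05). Without that library it was at least 12.5-fold higher, and with females alone at least 13.9-fold. It rose by 3.39 (log2) with males alone, by 5.41 with the replicate block and by 5.50 with limma-voom. *Nog*, or noggin, had 100 counts in the size-selected samples and 1 in whole spleen, a ratio of 86.5 with a 95% interval from 15.2 to 3449 for counting error only.

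The LTBP genes, whose products anchor latent growth factor in fibrillin-rich matrix, rose together. *Ltbp4* had a lowest, median and highest level of 267, 572 and 863 CPM in the size-selected samples and of 2.87, 4.45 and 19.0 CPM in whole spleen, the highest being number 427 in both groups. The groups did not overlap, and its log2 fold change was 6.56 (SE 0.41, edgeR adjusted p = 2.652e-10), or 7.37 with females alone and 5.87 with males alone. *Ltbp2*, whose product binds fibrillin but not latent TGF-beta, had 15.5, 30.0 and 61.6 CPM against 0.206, 0.406 and 1.31 CPM (log2 fold change 5.87, SE 0.44, edgeR adjusted p = 2.092e-09). *Ltbp3* and *Ltbp1* rose by 5.35 and 4.89 (log2). Of all tested members, *Ltbp1* and *Ltbp2* were the only 2 whose fold moved by over 1.5 times once the constants of the size-selected columns were divided out, to 5.73 and 6.55 on the log2 scale.

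*Fstl1*, a secreted glycoprotein related to follistatin, averaged 161 ± 64.2 CPM against 3.49 ± 2.88 CPM and rose by 5.54 (log2, SE 0.43, edgeR adjusted p = 2.723e-09), or by 6.26 with females and 4.88 with males alone. The activin-binding proteins proper rose less, *Fstl3* by 2.58 and *Fst* by 2.27 (log2, edgeR adjusted p = 4.318e-08 and 0.0001085). *Bmp1*, which in spite of its name is the protease that cleaves procollagens and chordin, averaged 39.6 ± 13.4 CPM against 1.92 ± 0.935 CPM and rose by 4.36 (log2, SE 0.30, edgeR adjusted p = 7.656e-10).

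The Smads, which carry the signal inside the cell, had the smallest median change of the 4 roles. Of 7 tested, 4 rose and 3 were not called, and the median log2 fold change was 0.23. Of the 6 Smads that reached the count minimum in all 8 whole spleen samples, 3 rose. *Smad6*, the inhibitory Smad that acts mainly on BMP signals, stood apart from the rest. It had a lowest, median and highest level of 11.8, 16.95 and 34.0 CPM in the size-selected samples and of 0.193, 0.503 and 1.96 CPM in whole spleen, with no overlap, and rose by 4.44 (log2, SE 0.40, edgeR adjusted p = 1.87e-08). The other inhibitory Smad, *Smad7*, had 43.3, 44.4 and 60.6 CPM against 45.2, 56.4 and 62.3 CPM, and its log2 fold change was -0.16 (SE 0.10, edgeR adjusted p = 0.157). *Smad3*, which lies 195.1 kb from *Smad6* on chromosome 9, averaged 86.3 ± 16.3 CPM against 92.5 ± 10.3 CPM (log2 fold change -0.10, SE 0.12, edgeR adjusted p = 0.460). *Smad2*, the other TGF-beta and activin Smad, averaged 64.9 ± 5.57 CPM against 63.0 ± 7.18 CPM (log2 fold change 0.04, SE 0.08, edgeR adjusted p = 0.657).

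The start region of *Smad6* is shown because this was the Smad with the largest rise and because its window holds GTCTAGAC, the palindromic Smad-binding element, which reads the same on both strands. It is from RefSeq on GRCm38.p6 (chr9:64022010-64022309, minus strand), again from 250 bases before to 50 bases after the annotated start, and the capitals mark that element, which begins 4 bases before the start. The element is in 0.213% of the 32851 windows, and *Smad6* was the only one of the 32 members with a window that holds it. Of 31 tested genes whose window holds it, 35.5% rose, against 38.9% of tested genes with any window. The shorter GC-rich Smad element GGCGCC is in 11.9% of windows and in those of 10 of the 32 members, *Gdf10*, *Tgfbr1*, *Bmpr1a*, *Bmpr2*, *Acvr1b*, *Grem1*, *Chrd*, *Ltbp4*, *Smad5* and *Smad9*, and 38.9% of the tested genes with it rose.
Smad6: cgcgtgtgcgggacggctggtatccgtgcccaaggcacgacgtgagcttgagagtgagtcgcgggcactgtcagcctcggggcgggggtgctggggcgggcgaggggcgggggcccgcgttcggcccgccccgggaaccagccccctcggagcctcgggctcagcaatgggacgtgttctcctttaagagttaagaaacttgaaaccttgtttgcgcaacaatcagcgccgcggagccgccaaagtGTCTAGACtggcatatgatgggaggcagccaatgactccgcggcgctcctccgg

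The BMP Smads rose by less than *Smad6*. *Smad1* had a lowest, median and highest level of 39.9, 51.6 and 77.9 CPM in the size-selected samples and of 19.0, 26.9 and 32.2 CPM in whole spleen, with no overlap (log2 fold change 1.13, SE 0.15, edgeR adjusted p = 1.669e-06). *Smad5* had 20.1, 32.3 and 38.6 CPM against 11.5, 17.6 and 20.9 CPM, with overlap (log2 fold change 0.83, SE 0.14, edgeR adjusted p = 4.247e-05), and with the male numbers alone it was 0.53 and not called. *Smad4*, the partner shared by both branches, had 163, 179 and 199 CPM against 104, 157 and 176 CPM. Its log2 fold change of 0.23 (SE 0.10) was called narrowly (edgeR adjusted p = 0.0409). The call was lost on restored counts (0.18), with no count filter (0.17), and with females alone (0.10) or males alone (0.30). It was also lost when any 1 of numbers 407, 408, 427, 435, 447 and 460, or whole spleen 427 alone, was left out, where the log2 fold change lay between 0.17 and 0.24. *Smad9* had at most 8 counts in any sample.

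Dividing CPM by the mean annotated transcript length in kilobases allowed levels to be compared between genes. Levels, sums and shares on this scale use the deposited values, and none is given on restored counts. The constants lower size-selected values only, by a factor of 0.770 to 0.858 for *Tgfb1*, 0.451 to 0.631 for *Ltbp1* and 0.889 to 0.964 for *Ltbp4*. *Bmp2* carries none. Summed over each role per kilobase, ligand RNA was 387 ± 27.3 CPM per kilobase in the size-selected samples and 438 ± 34.8 in whole spleen, and Smad RNA 307 ± 12.6 and 261 ± 26.6. Receptor RNA was 423 ± 90.8 against 104 ± 16.7, and that of extracellular regulators 429 ± 150 against 9.995 ± 5.11. The ligand sums overlapped between groups (361 to 430 against 375 to 484 CPM per kilobase), while those of receptors, extracellular regulators and Smads (290.1 to 326 against 205 to 288) did not. The order of the ligand sums turned with the length used: they were 210 ± 31.1 against 158 ± 18.4 with the union of exons, and 265 ± 28.3 against 252 ± 24.6 with the longest transcript, with overlapping ranges in both. *Tgfb1* alone was 346 ± 24.6 CPM per kilobase of the whole spleen ligands and 173 ± 27.2 of those in the size-selected samples. *Gdf15*, at 76.8 ± 18.8 CPM per kilobase, and *Bmp2*, at 43.6 ± 12.7, followed in the size-selected samples, and the ranges of these 2 overlapped. Among receptors *Eng* was highest in the size-selected samples (169 ± 54.3 CPM per kilobase) and *Tgfbr2* in whole spleen (58.5 ± 8.88). The size-selected range of *Eng* overlapped that of *Acvrl1*, the next receptor. Among the regulators, *Ltbp4* (193 ± 62.5 CPM per kilobase) and *Fstl1* (147 ± 58.5) led the size-selected samples, with overlapping ranges, and *Smad4* was the highest Smad in both groups (135 ± 10.2 and 115 ± 17.1).

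**Figure D3:**
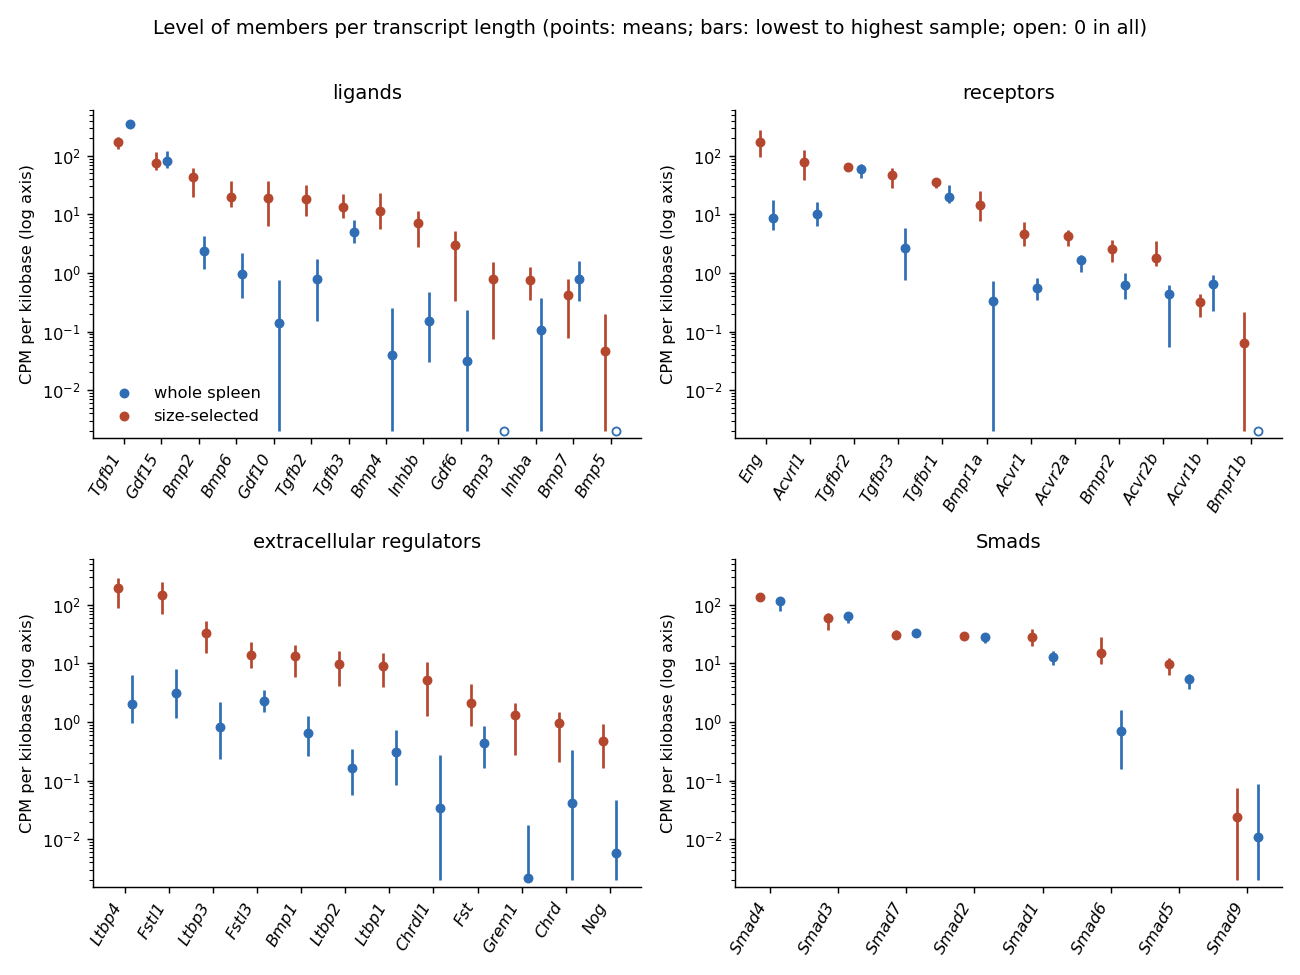
Mean level of each member in CPM per kilobase on a log axis, with bars from the lowest to the highest of 8 samples, for size-selected and whole spleen samples, and open points for members at 0 in all samples of a group. Receptors and extracellular regulators separate by group for most members, while Gdf15, Tgfbr2, Smad2, Smad3 and Smad7 lie at similar heights in both.

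These levels depend on the length used. With the union of exons, or the longest transcript, in place of the mean transcript, *Eng*, *Ltbp4* and *Smad4* stayed first of their role in the size-selected samples, but *Tgfb1* was the third ligand under the union of exons, behind *Gdf15* and *Bmp2*. Shares within 3 families are given on the per-length scale, with no test. *Tgfb1* was 98.4 ± 0.522% of the 3 TGF-beta isoforms in whole spleen, from 97.4% to 99.1%, and 84.4 ± 6.60% in the size-selected samples, from 70.9% to 92.0%, so that the groups did not overlap. *Bmp2* was 58.4 ± 6.84% of *Bmp2*, *Bmp4* and *Bmp6* together in the size-selected samples and 71.0 ± 11.8% in whole spleen, with overlap. *Ltbp4* was 78.9 ± 4.54% of the 4 LTBP genes in the size-selected samples and 59.9 ± 9.47% in whole spleen, also with overlap. With the union of exons the mean shares in size-selected samples and whole spleen were 69.4% and 94.2% for *Tgfb1*, 75.7% and 84.9% for *Bmp2*, and 86.2% and 71.6% for *Ltbp4*. Those with the longest transcript lay between the 2 sets of values.

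The members also varied among samples of 1 group. The highest size-selected sample was between 1.22 and 15.4 times the lowest over the members tested, with a median of 2.89. Of the 33 members that rose, 20 were highest in size-selected 427 and 9 in size-selected 436, while 13 were lowest in 435 and 12 in 408. The same samples were often the extremes over all genes that rose: 52.5% were highest in size-selected 427, 17.8% highest in 436, 29.7% lowest in 435 and 44.3% lowest in 408. In whole spleen, number 427 was highest for 20 of the 33 members and for 34.6% of all genes that rose.

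edgeR called no member for sex. In whole spleen, 0 of 29 members tested were called between the 4 female and 4 male samples by edgeR, 5 had an unadjusted p under 0.05 (16.1% of all genes did), and 0.194% of all genes were called. DESeq2 called 1 member and 4.31% of all genes. The member was *Tgfb3*, which averaged lower in females (log2 fold change of females over males -0.69, DESeq2 adjusted p = 0.0412, edgeR adjusted p = 0.152). In the size-selected samples, 0 of 43 were called by edgeR or by DESeq2, with 1 and 3 at an unadjusted p under 0.05 (4.18% and 5.11% of all genes), and 0.0397% of all genes were called by edgeR and 0.146% by DESeq2. The interaction of sex and fraction had 0 calls among 43 members by either tool and 0% over all 15760 genes tested by edgeR. Of the 43 members, 8 had an unadjusted interaction p under 0.05, where 4.72% of all genes did: *Tgfb2*, *Bmp2*, *Inhba*, *Inhbb*, *Gdf6*, *Tgfbr3*, *Chrd* and *Ltbp4*, each with the larger rise in females. The count was 8 by DESeq2 (5.50% of all genes) but 2 by limma-voom, *Inhba* and *Tgfbr3* (3.65% of all genes). Without number 427, a male, the count was also 8, and without number 447, a female, it was 4. Each of the 8 members named had a lower mean in female than in male whole spleen. *Gdf6* and *Chrd* were at 0 in all 4 female whole spleen samples and had 11 counts each in the males, 10 and 11 of them in whole spleen 427. The size of their difference between the sexes thus rests on a few counts.

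Other genes of the pathways were taken from 6 lists, and 63 of the 93 that are not members had enough counts to test. Of these, 52 rose, 5 fell and 6 were not called by edgeR, with a median log2 fold change of 2.02. Over all 14510 genes tested, 37.5% rose and 30.4% fell, with a median of 0.05. Other extracellular regulators rose in 20 of 21 tested, with a median of 4.36, or 3.15 with genes absent from whole spleen set at their bound. They included *Fbn1*, the fibrillin to which LTBP proteins bind (51.4 ± 21.7 CPM against 0.247 ± 0.281, log2 fold change 7.72). All 4 other receptors and co-receptors tested rose, with *Neo1* (neogenin, 5.73 on the log2 scale) and *Hfe2* (hemojuvelin, 5.25) leading. Of 3 other ligands tested, *Gdf11* fell by 0.81 on the log2 scale (edgeR adjusted p = 0.0145), which was not called without number 407 (-0.66) or with males alone (-0.96), and the other 2 were not called.

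Intracellular regulators moved in both directions: 10 of 16 rose, 4 fell and 2 were not called, with a median log2 fold change of 0.32. With the replicate block 9 rose, since *Tgif2* was not called. *Zfyve9* (SARA, which holds Smad2 and Smad3 near the receptor) rose by 2.57 and *Smurf1*, a ubiquitin ligase for BMP Smads, by 1.01, while *Pmepa1*, a TGF-beta target that limits Smad2 and Smad3, fell by 1.10 on the log2 scale (edgeR adjusted p = 1.025e-05). Of 15 genes known to respond to TGF-beta, 13 rose, 1 fell (*Pmepa1*) and 1, the member *Smad7*, was not called, with a median of 3.55. The 13 include the member *Ltbp2*, which was already counted above. *Col1a1* and *Tagln* led with 7.0 and 6.49 on the log2 scale. *Col1a1* is also on the fibroblast marker list summed above, and *Tagln* and *Acta2* are on the smooth muscle list, so these genes are not separate from those markers. Of 11 BMP-responsive genes tested, 9 rose, the member *Smad6* among them, and 2, *Id2* and *Smad7*, were not called, with a median of 3.02. *Id4* went from 0.492 ± 0.488 CPM in whole spleen to 38.3 ± 13.1 CPM (log2 fold change 6.31) and *Msx1* from 0.887 ± 0.402 to 70.0 ± 24.8 CPM (log2 fold change 6.31).

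**Figure D4:**
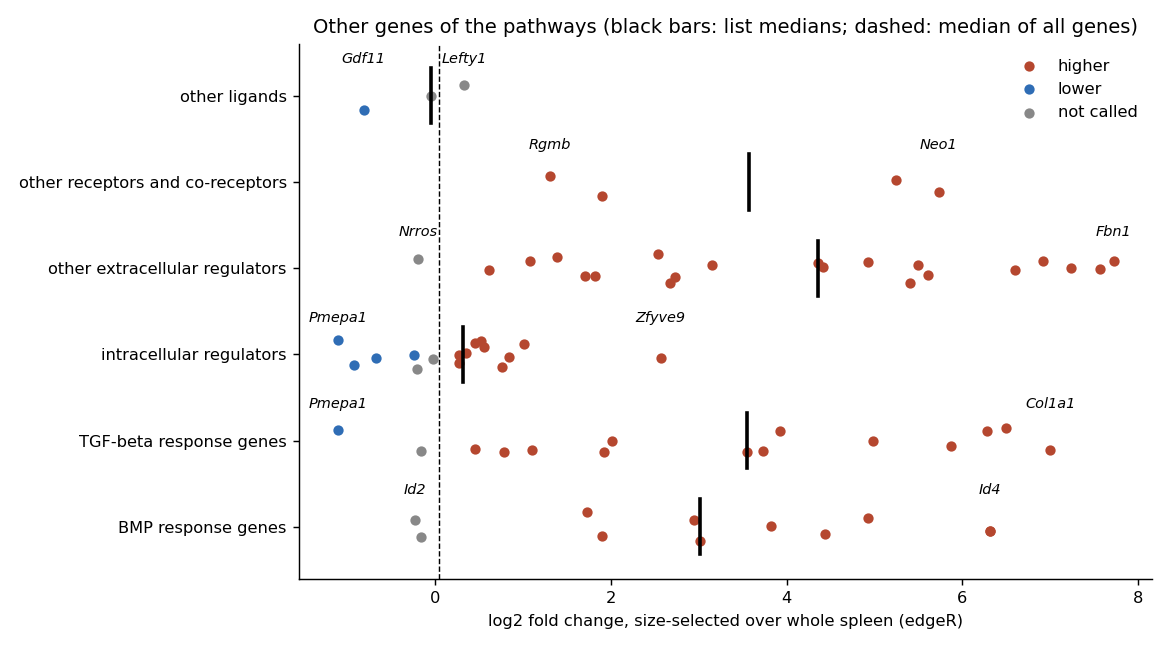
Log2 fold change (x axis, size-selected over whole spleen) of each tested gene in 6 lists of further pathway genes, with black bars at list medians, a dashed line at the median of all genes and the highest and lowest gene of each list named. Intracellular regulators lie on both sides of 0 with a median of 0.32, and the other extracellular regulators have a median of 4.36.

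The authors' deposited table of genes enriched in the size-selected group lists 2201 genes, and the smallest log2 fold change in it is 3.5. It holds 22 of the 46 members: 10 extracellular regulators, 8 ligands, 3 receptors and 1 Smad, *Smad6*. In the authors' deposited table the members with the highest mean TPM in the size-selected group were *Ltbp4* (155 TPM, against 1.68 TPM in whole spleen) and *Eng* (140 TPM, against 5.50 TPM).

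Exons of 14 members overlap a gene on the other strand in the annotation and those of 2 a gene on the same strand, and the strand used for counting is not given in the sources used here. These include several of the members described: *Bmp4* overlaps *Gm15217*, *Bmp6* *Txndc5*, *Tgfb2* *Gm29491*, *Bmpr1a* *Gm17110*, *Acvrl1* *Gm16031*, *Eng* *Fpgs*, *Acvr2a* *Orc4*, *Chrd* *Thpo*, *Ltbp2* *D030025P21Rik* and *Fstl3* *Prss57* in this way, so part of their counts may come from the partner. The labels do not say whether a number is 1 animal, and p-values then measure the spread between these samples.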

How the data were processed

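RNA-seq libraries of 8 size-selected and 8 whole spleen samples were compared. The deposited table gives estimated counts per gene for each sample. The submitters' processing notes name Trim Galore, STAR, RSEM, DESeq and the build mm10, with no versions; the annotation and strand setting are not given in the sources used here. A second table holds the authors' comparison. Per the file headers its columns are a mean signal per gene (base mean), a log2 fold change, a test score, p-values, and the TPM and FPKM means that the authors computed per group; the FPKM values were not used here. In each size-selected column the deposited estimated counts of part of the genes, 21 of the 46 members among them, are products of 1 to 3 constants (0.659 to 0.789, 0.770 to 0.858 and 0.889 to 0.964). This was found from the values; dividing them out gave restored counts, used as an alternative.

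Estimated counts were rounded and tested with edgeR 4.0.16 in R 4.3.3 (filterByExpr with a minimum count of 10, TMM, quasi-likelihood F test, Benjamini-Hochberg adjustment over all genes tested, calls at an adjusted p under 0.05) with the group as the only term. Sex was tested within each group and as an interaction. CPM use TMM-scaled totals, and per-length levels divide them by the mean length of a gene's transcripts in GENCODE M21 (GRCm38, the same assembly as mm10), where 54809 of the 54838 gene identifiers and all 46 members were found. Deviations from the group mean correlated between same-numbered samples at 0.12 to 0.38 in all 8 pairs (mean 0.21 across genes, -0.03 for other numbers), so the numbers of the labels were taken to pair the samples, and a fit with the number as a replicate block was an alternative. A floor of 3 counts per library stands for genes at 0, and intervals (exact, 95%) cover counting error only. Promoter windows are from a RefSeq table that holds 32 of the 46 members.

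In each role the 4 largest rises and up to 2 largest falls among called members whose mean log2 CPM was 1 or more are given sample by sample, and in each further list the 2 largest rises and the largest fall are named, except that a few genes are not reported here; other members were named for their role or family after their values were seen. The members and all lists were chosen with earlier results of these data known. Alternatives were RLE scaling, library totals, limma-voom (limma 3.58.1), DESeq2 1.42.0, other filters, the block, sex as a covariate, a fold limit, restored counts, a single sex, leaving out each number or whole spleen 427, and other gene lengths.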

Additional observations from a re-analysis of the deposited data

Results flagged for a closer look

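In 19 of 89 groups of 8 samples, a member had 1 sample set far from the other 7 on the log2 CPM scale; chance gives this in about 1 of 20 groups. That rate does not apply to 5 of the 19 (*Grem1*, *Nog*, *Chrd*, *Chrdl1* and *Smad9* in whole spleen), where the other 7 samples were all at 0 and any count sets a sample apart. Whole spleen 427 was the highest whole spleen sample for *Gdf6* (-0.08), *Chrd* (0.04), *Chrdl1* (-0.08) and *Ltbp4* (4.26) and the lowest for *Acvr2a* (1.93). It also had the highest whole spleen sums of fibroblast, smooth muscle and endothelial markers. Size-selected 435 was lowest for *Bmp2* (6.12), *Bmp3* (-0.93) and *Gdf6* (0.39), size-selected 408 was lowest for *Chrd* (-0.51) and highest for *Smad2* (6.30), and size-selected 427 was highest for *Acvr2b* (2.38) and lowest for *Smad3* (5.76). Whole spleen 435 was lowest for *Smad4* (6.71) and, with 4 counts, highest for *Bmp4* (-1.28), and whole spleen 445 was highest for *Tgfbr1* (6.30). The remaining values rest on 6 counts or fewer: *Acvr2b* was lowest in whole spleen 407 (-2.25), *Nog* (-2.25) and *Smad9* (-0.74) were highest there, and *Grem1* was highest in whole spleen 436 (-2.29).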

How the results depend on the processing

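Over 20 alternatives for the 41 tested members, 797 of 811 log2 fold changes kept their side of the threshold, 13 were no longer called and 1 became called (*Bmp7* with the replicate block). The sign changed in 6 values of 3 members not called under either setting (*Smad2*, *Smad3* and *Gdf15*, all between -0.10 and 0.05), and in no called value. For 37 members the call was the same in each of these fits that tested them; 8 members were not tested with a minimum count of 50, nor *Chrd* without number 427. Members called higher numbered 33, 27 with a minimum count of 50, 30 under a fold limit of 1 on the log2 scale (without *Tgfbr1*, *Smad4* and *Smad5*), 36 with no filter, 32 on restored counts, 31 with males alone and 33 with the replicate block, and from 31 to 33 when a number or whole spleen 427 was left out. Members called lower numbered 2, but 1 with a minimum count of 50, where *Acvr1b* was not tested, 1 with males alone, 3 with the replicate block (with *Bmp7*), and 2 without each number. The block changed no other call of a member, and of the further pathway genes 51 in place of 52 rose (*Tgif2* was not called). Further pathway genes called lower numbered 5, but 3 with males alone and 1 under the fold limit. DESeq2 called 1 member for sex in whole spleen and edgeR 0; the cause was not tested. Library totals in place of TMM moved the median of all genes from 0.05 to 0.17 on the log2 scale. Other length definitions moved 86 of 184 per-length levels by more than 1 SD. Low counts limit *Bmp5*, *Bmpr1b*, *Nog* and *Smad9*, and a few counts in whole spleen decide the size of the folds of *Bmp4*, *Gdf6*, *Grem1*, *Chrd* and *Chrdl1*.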
